A study of Mus musculus with 4 samples.

Results

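Zac1, also called Plagl1, is a zinc finger transcription factor whose own gene is imprinted and lies on chromosome 10 of the mouse. The regions described here are the Zac1 ChIP-seq peaks of chromosome 7 that lie outside its distal imprinted domain. They were taken from the deposited peak table (mm9 coordinates) as every peak on chromosome 7 whose midpoint was below 149600000, a limit that sets apart the cluster around H19, Igf2 and Cdkn1c. This gave 198 regions, which is 4.27% of the 4638 peaks in the table and all but 48 of the 246 peaks of chromosome 7. The other 4440 peaks served for comparison.

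The chromatin came from Neuro-2A, a mouse neuroblastoma line labelled as Swiss Albino, transfected with the Zac1 expression plasmid pRK5-Zac1 and fixed 16 hours later. Both groups were made from these transfected cells. The ChIP group (2 libraries) holds chromatin pulled down by a Zac1 antibody that the laboratory made itself, and the input group (2 libraries) holds chromatin that was not precipitated. Zac1 was thus supplied from a plasmid in a single cell line, and cells without plasmid were not analysed here. The table gives 1 ChIP and 1 input read count per peak and does not say how the replicates were combined, so no value below carries a replicate error, and no test between peaks was made. Intervals are exact 95% intervals that cover counting error at most, and they treat reads, or peaks in a share of peaks, as independent. PCR copies cannot be told from separate molecules, so the intervals may be too narrow even for counting error.

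Genomic imprinting is the expression of a gene from only the maternal or only the paternal chromosome, set by DNA methylation marks placed in the germ line. Imprinted genes lie in domains, and mouse chromosome 7 carries several. The proximal domain holds Peg3, a paternally expressed zinc finger gene, with its neighbours Zim1 and Usp29. The central domain runs from the ubiquitin ligase gene Ube3a over Snrpn and Snurf to Ndn, Magel2 and Mkrn3, and matches the human Prader-Willi and Angelman region. Snrpn encodes a small nuclear ribonucleoprotein, Ndn (necdin) and Magel2 encode MAGE family proteins, and Mkrn3 a ring finger protein. Zac1 has been described as a member of a network of imprinted genes that are expressed together, and the study mapped its binding sites in transfected Neuro-2A cells.

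No peak lay in either domain. The promoters of their central genes are shown because the absence of peaks refers to them: the start sites of Peg3, of Snurf (shared with a Snrpn start) and of Ndn, from RefSeq on GRCm38.p6, each with 250 bases before and 50 after the start, 5′ to 3′ on the strand of the gene. Zac1 is known to bind GC-rich elements, and capitals mark exact matches to GGGGCCCC, a palindrome that reads the same on both strands. The same letters include the shorter GGGGCC and its reverse complement GGCCCC, which were searched as well.
Peg3 promoter, minus strand: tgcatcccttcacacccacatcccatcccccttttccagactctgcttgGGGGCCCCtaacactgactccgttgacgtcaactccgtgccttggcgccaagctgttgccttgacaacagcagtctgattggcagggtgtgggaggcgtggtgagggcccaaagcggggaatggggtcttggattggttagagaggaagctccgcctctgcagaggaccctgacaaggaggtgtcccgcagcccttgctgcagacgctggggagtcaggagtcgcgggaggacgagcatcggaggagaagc
Snurf promoter, minus strand: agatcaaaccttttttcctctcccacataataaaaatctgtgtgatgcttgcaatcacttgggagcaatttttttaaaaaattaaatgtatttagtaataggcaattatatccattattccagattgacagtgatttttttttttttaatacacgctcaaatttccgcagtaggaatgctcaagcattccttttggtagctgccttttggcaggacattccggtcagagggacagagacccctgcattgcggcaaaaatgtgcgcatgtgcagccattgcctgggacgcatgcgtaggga
Ndn promoter, plus strand: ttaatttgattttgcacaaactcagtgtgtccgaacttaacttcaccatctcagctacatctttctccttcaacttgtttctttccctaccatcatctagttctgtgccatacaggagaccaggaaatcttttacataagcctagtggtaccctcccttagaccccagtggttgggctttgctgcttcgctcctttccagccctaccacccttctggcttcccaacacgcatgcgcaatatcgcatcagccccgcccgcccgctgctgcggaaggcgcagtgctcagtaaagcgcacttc

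The Peg3 promoter held 1 match to GGGGCCCC, which began 201 bases before the start site. Usp29 starts on the opposite strand next to Peg3, and since 263 bases of the 300 are shared between both promoters, its promoter held the same match. The Snurf and Ndn promoters held neither GGGGCCCC nor GGGGCC on either strand. Of 13 promoters in the RefSeq table for 10 genes of both domains (Zim2 included), 2 held GGGGCCCC and 4 held the shorter element. Among the 2790 RefSeq promoters of chromosome 7, the share with GGGGCCCC was 1.33% and that with the shorter element 24.8%, and among all 32851 promoters the shares were 1.08% and 24.97%. The base composition differed too, with 61.3% G and C in the Peg3 promoter, 51.0% in Ndn and 40.3% in Snurf. A match in these letters describes the sequence and not a bound site. The peaks themselves could not be printed, because only sequence of another assembly was used here.

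The limits of both domains are rounded mm9 positions from general knowledge, set wide because no mm9 annotation was used. The Peg3 domain was taken as 6 to 8 Mb, and it contained 0 peaks. It lies within a stretch of 11.5 Mb without any peak. The last peak before it was at 5046739 to 5046767, 0.953 Mb from the limit of the domain, and the next one was at 16506257 to 16506373, 8.51 Mb beyond it. The peak before the stretch had 89 ChIP and 2 input reads, a 63.9-fold excess over scaled input (17.2 to 536.0), and had the fifth best rank among the chromosome 7 regions. The peak after it had 61 ChIP and 2 input reads. With limits widened by 1 Mb on each side the domain took in 1 peak, the one at 5046739, and with limits of 6.5 to 7.2 Mb it held 0.

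The Snrpn-Ndn domain was taken as 66 to 70 Mb and also contained 0 peaks, with these limits, with limits of 65 to 71 Mb and with limits drawn closer around the core genes. It sits inside the longest peak-free stretch of the chromosome, 18.9 Mb between the peak at 54395758 to 54395816 and the peak at 73332501 to 73332845. Its proximal edge is 11.6 Mb before the domain and its distal edge 3.33 Mb after it. The peak at the proximal edge had 49 ChIP reads and 1 input read. That at the distal edge was among the regions with most reads, 160 in the ChIP and 13 in the input, a 17.7-fold excess (10.0 to 33.9).

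**Figure D1:**
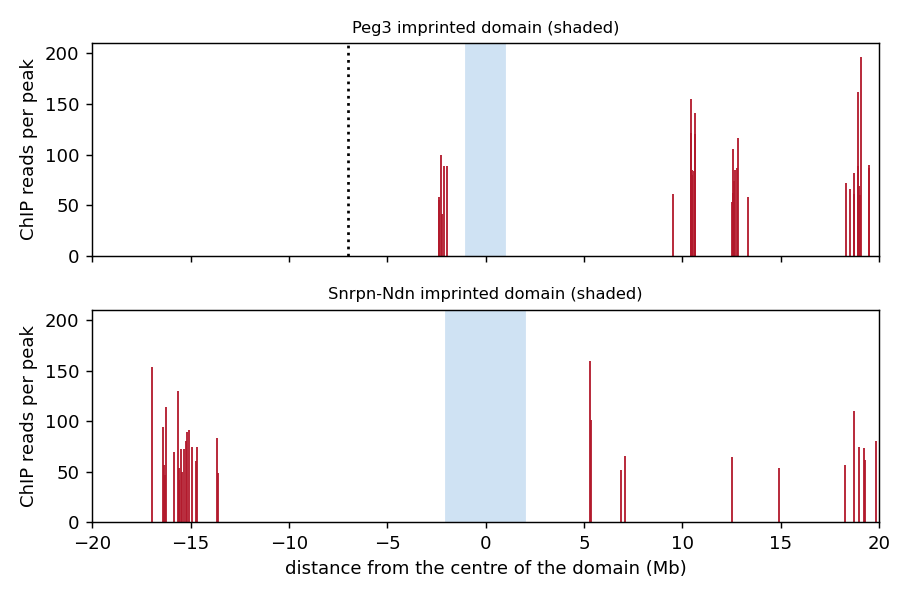
Each vertical line is a peak of chromosome 7, placed by its distance in Mb from the centre of the Peg3 domain (upper panel) or the Snrpn-Ndn domain (lower panel), and its height gives the ChIP reads. The shaded bands are the domains, 2 and 4 Mb wide, both hold 0 peaks, and the dotted line marks the start of the chromosome.

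Empty stretches of this size were common on the chromosome. Outside the distal domain, 38 of 75 windows of 2 Mb held no peak (50.7%), as did 15 of 38 windows of 4 Mb (39.5%). On the other chromosomes 694 of 1213 windows of 2 Mb were empty (57.2%) and 257 of 613 windows of 4 Mb (41.9%). At the mean density of the 198 regions, 2.65 peaks would fall in the Peg3 domain and 5.29 in the Snrpn-Ndn domain. In the list, the busiest window of either strand never had fewer than 16 ChIP reads. The absence of a peak means only that the deposited list holds no site there. Up to the highest rank, 50 ranks are absent from the list, and any positions that belong to them are unknown. Weaker sites in these domains were not analysed here.

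Along the chromosome the regions gathered in blocks separated by long gaps. Their density was 1.32 per Mb over 149.6 Mb, against 16.7 per Mb in the distal domain (48 peaks over 2.88 Mb) and 1.82 per Mb on the other chromosomes (4392 peaks over 2409 Mb, counted to the last peak of each). Of the 19 other chromosomes with peaks, 9 had a higher density and 10 a lower one, from 0.0218 to 5.73 per Mb. The regions lack the dense distal domain by definition, and with it chromosome 7 had 1.61 peaks per Mb. Chromosome 7 as a whole carries 8.33% of the 49939 named genes of the RefSeq table and 5.30% of the peaks, or 0.636 times its share of genes. This ratio was not computed for the other chromosomes, so whether it is low or high among them is not known.

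In windows of 10 Mb, regions were counted from the proximal to the distal end. The first window, which on mm9 begins with unsequenced bases, held 6 regions, the window from 10 to 20 Mb held 19, that from 20 to 30 Mb held 32 and that from 30 to 40 Mb held 18. The densest window (20 to 30 Mb) thus carried 16.2% of all the regions, at 3.2 per Mb. The window from 40 to 50 Mb was empty, 20 regions lay between 50 and 60 Mb, and the window from 60 to 70 Mb was empty again. The middle of the chromosome was sparse, with 4 regions from 70 to 80 Mb, 12 from 80 to 90 Mb and 0 from 90 to 100 Mb. Towards the distal end the windows held 25 regions from 100 to 110 Mb, 15 from 110 to 120 Mb, 6 from 120 to 130 Mb, 24 from 130 to 140 Mb and 17 from 140 Mb to the limit. The 4 longest gaps, at 18.9, 16.3, 12.0 and 11.5 Mb, together took up 39.2% of the stretch, and the longest was the 16th longest of the 4618 gaps between neighbouring peaks in the table.

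Peaks per window were also counted on the other chromosomes. The 15 windows of chromosome 7 had a median of 15 regions (interquartile range 5 to 19.5), and 3 were empty. The 252 windows of the other chromosomes had a median of 4.5 peaks (1 to 20), and 61 were empty (24.2%). The means were in the opposite order, 13.2 regions per window on chromosome 7 and 17.4 peaks per window on the others. No window of chromosome 7 outside the distal domain exceeded 32 peaks, while 36 windows of other chromosomes did, up to 240. The rule for the regions left out the dense distal domain, while the other chromosomes kept their densest stretches. The highest counts and the means are therefore not a like comparison. At 1 Mb resolution, 93 of 150 windows on chromosome 7 had no region (62.0%) against 1679 of 2419 elsewhere (69.4%). A minimum of 10 peaks was reached by 4 of the 150 windows (2.67%) and by 129 of the 2419 (5.33%). The highest count in the 150 windows, again without the distal domain, was 11, and 101 windows elsewhere exceeded it.

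**Figure D2:**
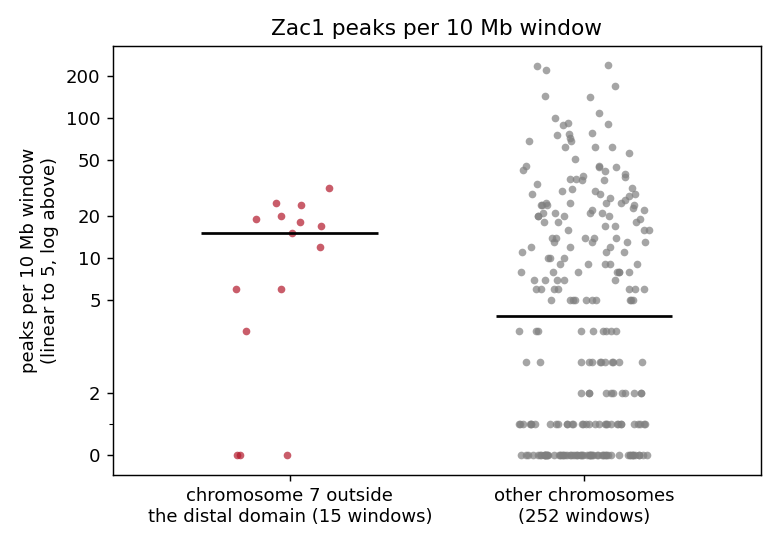
Each point is a 10 Mb window and its height the number of peaks in it (linear to 5, logarithmic above), for chromosome 7 outside the distal domain on the left and for the other chromosomes on the right, with horizontal lines at the medians of 15 and 4.5. The chromosome 7 windows end at 32 peaks, whereas windows of the other chromosomes reach 240, and the means are 13.2 and 17.4.

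The 1 Mb windows with most regions were those starting at 17 and 28 Mb (11 each) and at 52 and 108 Mb (10 each). The 11 regions of the window from 17 Mb lay within 219.9 kb (17425825 to 17645683) and made up the largest run of neighbours at most 100 kb apart. They held 1031 ChIP and 51 input reads (29.0-fold, 21.9 to 39.3), with 44 to 155 ChIP reads each. Within this run, 3 regions stood within 4.73 kb at its proximal end (155, 121 and 72 ChIP reads) and 3 within 3.47 kb at its distal end (141, 120 and 75). The 5 regions between them had 54, 80, 85, 84 and 44 ChIP reads. The 11 regions of the window from 28 Mb were spread over 906 kb. They included the best ranked region of the chromosome and totalled 833 ChIP and 36 input reads (33.2-fold, 23.8 to 47.8). The 10 regions of the window from 108 Mb had the lowest read support of these 4 windows, with a median of 56 ChIP reads and a 27.7-fold excess (19.6 to 40.4).

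Runs joined at 100 kb ranked next in size were 9 regions over 393 kb (28066222 to 28459232, 31.3-fold, 21.99 to 46.2) and 7 over 335 kb (19510908 to 19846394, 39.8-fold, 25.8 to 64.8). With a joining distance of 10 kb no run exceeded 4 regions, and the largest lay at 108055195 to 108071568, with 45, 96, 59 and 67 ChIP reads and 14 input reads in all. No run of 5 or more was formed at that distance among the 198 regions, against 56 such runs among the 4440 other peaks. The other peaks are far more numerous and include the dense distal domain, so these counts are not a like comparison.

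Distances between neighbours were set beside those of the other peaks. The median distance between midpoints was 107 kb (exact 95% interval 85.3 to 161 kb, interquartile range 37.8 to 412 kb, 197 distances), against 34.7 kb among the other peaks (32.3 to 37.9 kb, 4420 distances). In the distal domain, which is counted among the other peaks, it was 22.9 kb (11.4 to 40.7 kb, 47 distances). Leaving this domain out of the regions widened their spacing, and for all of chromosome 7 the median was 80.6 kb. Distances over 1 Mb made up 12.2% of those between the regions and 7.69% of those between the other peaks. These intervals treat distances as independent, which clustered peaks are not, and no test was made.

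Close neighbours were counted in the same way. The intervals of these shares treat peaks as independent. They are not, because a near neighbour is mutual and peaks cluster, so the intervals are too narrow. A peak within 10 kb was present for 52 of 198 regions (26.3%, 20.3 to 33.0%), against 1855 of 4440 other peaks (41.8%, 40.3 to 43.2%). With the distal domain included, a setting chosen after seeing the data, the chromosome 7 share was 30.5%. Within 1 kb the shares were 2.02% (4 regions, 0.553 to 5.09%) and 9.08% (403 peaks, 8.25 to 9.96%), and within 100 kb they were 68.2% and 83.2%. The 4 regions with a neighbour within 1 kb formed 2 pairs, at 28971588 to 28971986 (135 ChIP and 4 input reads together) and at 148956953 to 148958168 (151 and 3). In the pooled comparison the densest chromosomes weigh most. Taken singly, 14 of the 19 other chromosomes had a higher share within 10 kb and 5 a lower one, while 8 had a longer median spacing and 11 a shorter one. Chromosomes 1, 10 and 13, whose peak numbers (215, 250 and 143) are closest to 198, had shares of 28.4%, 39.2% and 16.1% and median spacings of 117, 44.3 and 126 kb, so they lay on both sides of the chromosome 7 values.

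**Figure D3:**
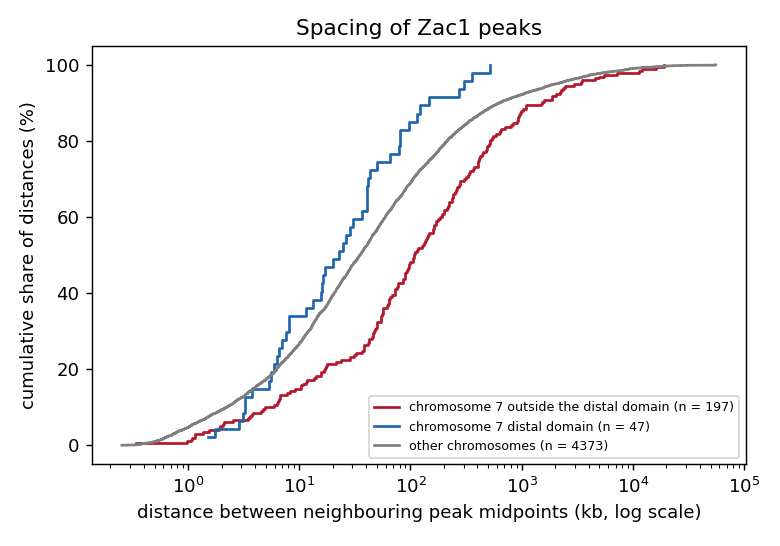
The curves give the cumulative share of distances between neighbouring peak midpoints (kb, logarithmic axis) for chromosome 7 outside the distal domain, for the distal domain and for the other chromosomes. The chromosome 7 curve lies to the right of the others over most of its range, with medians of 107 kb outside and 22.9 kb inside the distal domain.

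Read support was described by the ChIP and the input separately. The table's read columns are named for the positive sample, the ChIP, and the negative sample, the input, and do not refer to strands. The regions held 40 to 262 ChIP reads each, with a median of 72 (interquartile range 57 to 93), against 35 to 409 with a median of 75 (60 to 98) for the other peaks. At least 100 ChIP reads were found in 40 regions (20.2%, 14.8 to 26.5%) and in 1038 other peaks (23.4%, 22.1 to 24.7%), so these intervals overlapped. Input reads ran from 0 to 13 with a median of 3, against 0 to 57 with a median of 4. The mean was 3.40 input reads per region (3.15 to 3.67) and 4.43 per other peak (4.36 to 4.49). No input read was present in 16 regions (8.08%, 4.69 to 12.8%) and in 226 other peaks (5.09%, 4.46 to 5.78%), and 10 or more were present in 6 regions (3.03%) and 316 other peaks (7.12%).

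In total the regions held 15716 ChIP and 673 input reads, and the other peaks 372440 and 19648. Input reads were multiplied by 0.6961, the factor contained in the deposited fold values, which gave a 33.5-fold excess of ChIP over scaled input in the regions (31.1 to 36.3) and a 27.2-fold excess in the other peaks (26.8 to 27.6). The ChIP reads per peak differed less (79.4 and 83.9) than the input reads per peak. Peaks entered the table for their enrichment in the same reads, so these folds describe the list and were not tested. Among single chromosomes, 4 of 19 had a higher fold than chromosome 7 outside the distal domain, namely chromosomes 14 (44.7), 17 (37.5), 9 (34.6) and X (55.0, from 3 peaks). Chromosomes 14 and X have few peaks and wide intervals. The intervals of chromosomes 17 (34.1 to 41.4) and 9 (30.8 to 39.1) overlapped that of the regions. So did those of some chromosomes with a lower fold, such as chromosome 16 (27.7 to 35.4). The input reads per peak of the same chromosomes were 2.42, 3.07, 3.11 and 2.33, all below the 3.40 of the chromosome 7 regions. Chromosome 16 also had fewer input reads per peak, 3.31, and a lower fold of 31.3. The part of the input reads in the fold was not tested.

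The lower limit of the fold of a single region was above 10 in 134 of 198 regions (67.7%), where 58.3% of all 4638 peaks passed the same limit. The fold ranged from 10.1 to 178 among the 182 regions with input reads, with a median of 33.7, and from 5.22 to 249.96 among the 4214 other peaks with input reads, with a median of 28.7. The lowest folds belonged to regions at 116258641 to 116258692 (49 ChIP and 7 input reads, 10.1-fold, 4.53 to 26.3), 108966526 to 108966577 (85 and 12, 10.2-fold, 5.53 to 20.5) and 116334552 to 116334580 (66 and 8, 11.9-fold, 5.68 to 28.6). The deposited fold, which the authors' deposited table gives as a log2 value of the best window, had a median of 5.00 in the regions (3.56 to 5.98) and of 4.95 in the other peaks (2.42 to 6.36). Only 738 of the 4638 deposited folds need input reads to be reproduced. For the other peaks the value can be obtained from a ChIP window count alone, so it is mostly not a second measure of ChIP over input.

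**Figure D4:**
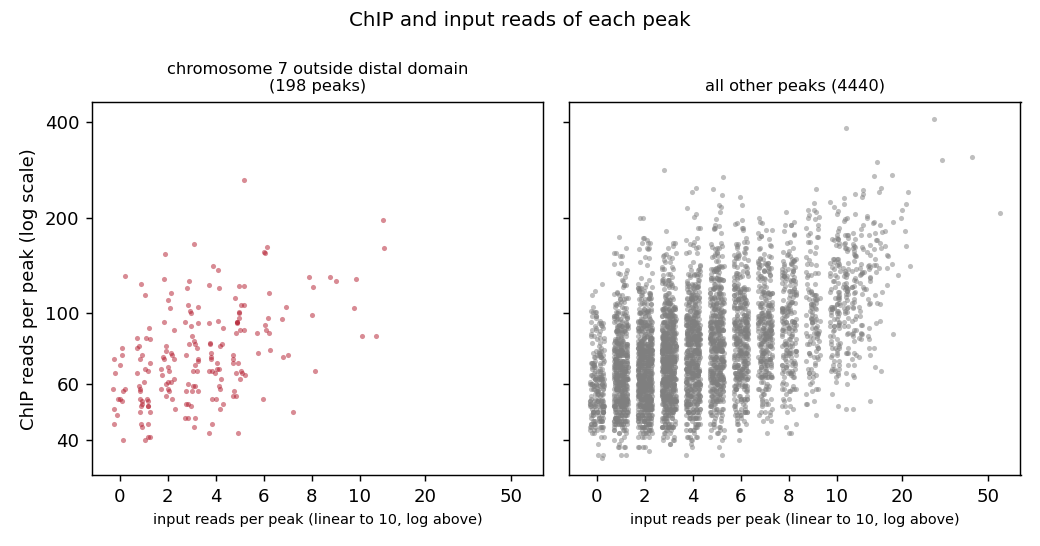
Each point is a peak, with its input reads on the horizontal axis (linear to 10, logarithmic above, points spread slightly sideways) and its ChIP reads on the vertical logarithmic axis, for the 198 regions of chromosome 7 on the left and the 4440 other peaks on the right. The regions stay at or below 13 input reads, while other peaks reach 57.

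The fold was also computed for each window of 10 Mb. Among the 12 windows of 10 Mb with regions, the fold ran from 22.7 (15.02 to 35.9) between 70 and 80 Mb, which holds 4 regions, to 55.8 (30.9 to 113) between 120 and 130 Mb, which holds 6. These were also the windows with the most and the fewest input reads per region, 6.0 (3.84 to 8.93) and 1.83 (0.915 to 3.28). The densest window, from 20 to 30 Mb, had 35.7-fold (29.5 to 43.6) with 3.41 input reads per region, and the last, from 140 Mb, 35.0-fold (27.0 to 46.1) with 3.53. The interval of the whole chromosome stretch, 31.1 to 36.3, overlapped the interval of each of the 12 windows. Each window is part of that stretch, and windows with few regions have wide intervals. The overlap therefore cannot show that the fold was even along the chromosome.

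The 10 best ranked regions held 79 to 262 ChIP reads and 0 to 5 input reads each, all above the median of 72 ChIP reads of the 198 regions. In the authors' deposited table the best rank was 24, held by the region at 28066222 to 28066325 with 131 ChIP reads and 0 input reads and a deposited log2 fold of 5.98. Rank 56 went to 29349425 to 29349474, with 124 ChIP reads and 1 input read. Rank 82 went to 106790549 to 106790620, with 165 and 3 reads (79.0-fold, 26.6 to 387). Those were the 3 regions among the 100 best ranked peaks of the table (1.52% of the regions, 0.314 to 4.36%), where 97 of the other peaks stood (2.18%, 1.78 to 2.66%). The next ranks belonged to regions at 51030383 (154 ChIP and 2 input reads), 5046739 (89 and 2), 118159321 (79 and 1), 148693966 (262 and 5), 17642211 (141 and 4), 25712610 (82 and 3) and 146490743 (104 and 2). These 10 regions were thus scattered over most of the chromosome, and 4 of them lay between 17 and 30 Mb. Over the whole list the ranks were close to even, with 101 of 198 regions (51.0%) in the better ranked 50% of the table.

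By ChIP reads alone, the leading region was at 148693966 to 148694128, with 262 reads (123 forward and 139 reverse) against 5 input reads (75.3-fold, 31.8 to 234). It lies 0.906 Mb before the limit of the distal domain. The next was at 26065636 to 26065672, where 196 ChIP reads stood against 13 of input (21.7-fold, 12.4 to 41.4), followed by the region at 106790549 given above. The regions at 25936024 to 25936222 (162 and 6) and at 73332501 to 73332845 (160 and 13) completed the 5 highest. The region with 262 reads was the highest, and the other 197 had at most 196.

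The strands carried nearly equal reads. Forward reads made up 50.2% of ChIP reads in the regions (7894 of 15716, 49.4 to 51.0%) and 50.1% in the other peaks (49.9 to 50.2%). For the input the forward shares were 52.2% (351 of 673, 48.3 to 56.0%) and 50.2% (49.5 to 50.9%). All 4 intervals included 50%. Single regions held 18 to 123 forward reads and 18 to 139 reverse reads, with a median of 36 on both strands, against a median of 38 on both in the other peaks. Forward reads were in excess in 100 regions (50.5%), reverse reads in 80 (40.4%), and 18 were equal (9.09%). In the other peaks these shares were 47.3%, 47.1% and 5.63%. The stronger strand exceeded 1.5 times the weaker in 2 regions, at 4877626 (32 forward and 57 reverse) and at 118159321 (48 and 31), or 1.01% (0.123 to 3.60%), against 177 other peaks (3.99%, 3.43 to 4.604%).

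**Figure D5:**
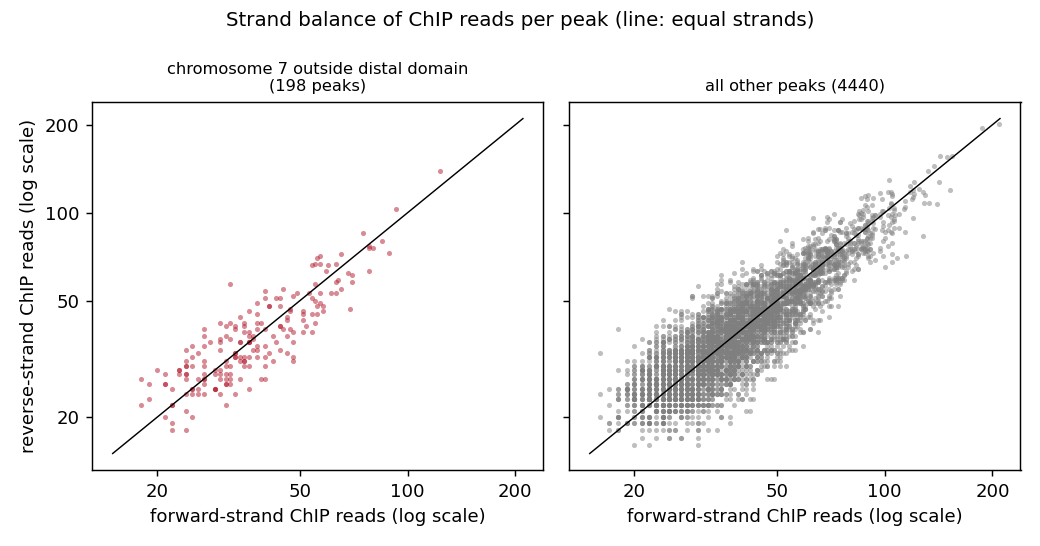
Each point is a peak with its forward-strand ChIP reads on the horizontal and its reverse-strand ChIP reads on the vertical axis (both logarithmic), for the 198 regions of chromosome 7 on the left and the 4440 other peaks on the right, and the line marks equal strands. Forward reads make up 50.2% of ChIP reads in the regions and 50.1% in the other peaks.

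In a ChIP experiment, reads of the forward strand pile up on the left of a bound site and reads of the reverse strand on its right, so the distance between both summits reflects the fragments around the site. It had a median of 64.5 bp in the regions (interquartile range 36.3 to 96 bp) and of 68 bp in the other peaks (33 to 103 bp). The summits were inverted or at the same base in 19 regions (9.60%, 5.88 to 14.6%) and in 550 other peaks (12.4%, 11.4 to 13.4%). The deposited length had a median of 75 bp in the regions (29 to 614 bp) and of 83 bp in the other peaks (29 to 882 bp), and 25 regions (12.6%, 8.34 to 18.1%) and 689 other peaks (15.5%, 14.5 to 16.6%) spanned 200 bp or more. The longest regions were at 134151911 to 134152524 (614 bp, 122 ChIP and 5 input reads), 29678770 to 29679349 (580 bp, 120 and 4) and 88202569 to 88203142 (574 bp, 128 and 10). In each of these 3 the summits were inverted. Length and summit distance were not separate measures in the regions. Where the summits were in order, the deposited length equalled their distance, apart from the shortest regions of 29 or 30 bp. All 19 regions with inverted summits were among the 25 that spanned 200 bp or more. In 52 regions (26.3%, 20.3 to 33.0%) the weaker strand had exactly 16 reads in its busiest window, the lowest value in the table, and 971 other peaks did so (21.9%, 20.7 to 23.1%).

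The peaks next to the limit of the distal domain were as follows. The last region inside, at 149516168 to 149516706, had 126 ChIP and 9 input reads and lay 83.6 kb before the limit. The first peak beyond it, at 149626756 to 149626889, had 97 and 7 reads and lay 26.8 kb past it. The next ones had 57 and 55 ChIP reads before the limit (3 and 5 input reads), and 174 and 160 beyond it (9 and 6 input reads). The density differed, as given above. ChIP reads per peak had a median of 72 (interquartile range 57 to 93) in the regions outside the distal domain and of 91.5 (69 to 122) in its 48 peaks. The mean input was 3.40 reads per region outside (3.15 to 3.67) and 3.79 in the domain (3.26 to 4.38). The fold was 33.5 (31.1 to 36.3) outside and 37.4 (32.3 to 43.6) in the domain, and these intervals overlapped. A peak within 10 kb was present for 26.3% of the regions outside (20.3 to 33.0%) and for 23 of 48 peaks in the domain (47.9%, 33.3 to 62.8%). These intervals again treat neighbouring peaks as independent.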

How the data were processed

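Zac1 ChIP and input libraries (2 each) are represented by a single table of peaks called with CisGenome, per the file headers, on the mm9 build, per the submitters' processing notes. The sources used here give no aligner, filters, thresholds or handling of replicates. Read counts per region, strand and busiest window are whole numbers as deposited, for ChIP and input separately. The largest window fold is a log2 value computed by the authors with a pseudocount of 1, and the deposited rank and summit distance are scores of each peak. False discovery rates were not used. Ranks run to 4688 while 4638 peaks are in the table, and the others were not analysed here.

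The input scaling of 0.6961 was recovered from the deposited folds: all 738 peaks whose fold needs input reads gave it, and it matched 4638 of 4638 folds within 0.0001 on the log2 scale, against 3901 (84.1%) without scaling. Folds have exact conditional binomial (Clopper-Pearson) 95% intervals, shares exact binomial ones, and mean input reads exact Poisson ones. Medians of spacing have exact intervals from order statistics. Library totals were not used, so read totals refer to the inside of peaks. Distances are between midpoints, and runs join neighbouring midpoints within the stated distance. Python 3.11.15, pandas 2.3.3, numpy 2.4.6 and scipy 1.17.1 were used. The recovery of the scaling and the interval of the fold were tested on simulated data. The simulated folds had far more input reads than single regions hold, and the other intervals were not simulated.

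The regions, the lists and the comparisons were chosen with earlier results of these data known. Regions were named by rule: the 10 best ranked, the 5 with most ChIP reads, the 3 with the lowest fold, the 3 longest, the densest windows, the largest runs, the 3 longest gaps and the neighbours of each domain. The 4th gap, the largest run joined at 10 kb, the pairs within 1 kb and the regions with uneven strands were named after their values were seen. Peaks were not assigned to genes, because the gene and promoter tables belong to GRCm38.p6 and positions were not converted. Those tables gave gene names, gene number per chromosome and promoter sequences. Alternatives were stricter rank and read limits, merging, other distances, shifted windows, other domain limits and other input handling.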

Additional observations from a re-analysis of the deposited data

How the results depend on the processing

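No paired analysis was possible because replicates have no separate values, and leaving out a library was not possible either. Of 28 alternative values, 14 stayed within the interval of the reported value, or within 1.5 times a count, and 14 moved outside it. The 198 regions became 101 in the better ranked 50% of the table and 36 among the 1000 best ranked peaks. They became 63 with at least 20 ChIP reads on each strand in its busiest window. All of this came by fewer peaks being kept. Their share of all peaks, 4.27%, was 4.93% after merging within 10 kb, 3.6% among the 1000 best ranked and 3.68% with at least 20 reads per strand. The fold of 33.5 was 23.4 without scaling of the input, 25.4 from busiest windows and 42.3 in the better ranked 50%. The median spacing of 107 kb was 163 kb after merging within 10 kb and 80.6 kb with the distal domain included, an alternative chosen after seeing the data. The share with a near neighbour, 26.3% at 10 kb, was 2.02% at 1 kb and 68.2% at 100 kb. The Peg3 domain held 1 peak with widened limits. Changes of distance, limits, input handling and region counts follow from how those alternatives are built, and for the shares and the fold in the better ranked 50% the cause was not tested. Shifting windows by 0.5 of their width moved the densest 10 Mb window to 25 to 35 Mb with 41 regions. Input counts of 0 to 13 per region make single folds imprecise.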
